A study of Mus musculus with 3 samples.

Results

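PHF10 binding was examined at the promoters of 5 genes for translation factors: Eef1a1 and Eef1a2, which encode the forms of elongation factor eEF1A, Eif4a1 and Eif4a2, which encode the RNA helicase eIF4A, and Eif2b1, which encodes the alpha subunit of the exchange factor eIF2B. They were picked from 21951 annotated protein-coding genes with the peaks of this experiment already known, so their peaks are a description and were not tested. A gene was counted as bound when a deposited PHF10 peak lay within 500 bp of a transcription start site (TSS) of any of its GENCODE M21 transcripts. By this rule 4 of the 5 genes had a peak, in a genome where 1.36% of protein-coding genes (298 of 21951) had one; because the genes were picked for their peaks, nothing is read from the contrast of these values. Eif4a1 was the gene with no listed peak.

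The chromatin came from brains of C57BL/6 mice (C57BL/6J males in the study's methods) at postnatal day 120. It was precipitated in 2 biological replicates with a non-commercial rabbit anti-PHF10 antibody, and once with a control. The sample label and the study's peak calling name this control pre-immune, whereas the study's precipitation methods name control rabbit IgG. It is called IgG here. The sample labels name whole brain, a mixture of neurons, glia and vessel cells, with 1 brain for an immunoprecipitation, whereas the text deposited for the series names cerebellum and a younger age, and the peak names also carry an abbreviation of cerebellum. With a single group of PHF10 libraries, no condition could be compared with another, and values in the replicates are set side by side. Replicate 1 had 251 peaks and replicate 2 had 141, which merged into 303 sites, and 89 of these (29.4%) were called in both replicates.

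PHF10 is a subunit of PBAF, a chromatin remodelling complex of the SWI/SNF family that moves nucleosomes at gene promoters. eEF1A carries aminoacyl-tRNA to the ribosome during elongation; Eef1a1 is active in nearly all tissues, whereas in neurons and muscle its product is replaced after birth by that of Eef1a2. eIF4A unwinds the leader of an mRNA before the ribosome scans it, and eIF2B reloads eIF2 with GTP so that another initiator tRNA can be delivered, a step that stress kinases shut down.

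The sequences around the start of each gene are shown first because the peaks lay on them. Each is written 5′ to 3′ on the strand of the gene, from mm10, with 15 bases before the TSS and 15 from it. Capitals mark a C at the TSS and the pyrimidines after it, the beginning that mRNAs with a terminal oligopyrimidine (TOP) tract share. For genes with a peak the TSS is the one nearest to a summit, and for Eif4a1 it is the one with the most transcripts.
Eef1a1, chr9:78481710-78481739, minus strand: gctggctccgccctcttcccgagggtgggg
Eef1a2, chr2:181157000-181157029, minus strand: ctctcctggtctgcgttctcgctcactggt
Eif4a2, chr16:23107744-23107773, plus strand: cgccgtccgcctgtcttttcagtcgggcgc
Eif4a1, chr11:69672303-69672332, minus strand: ggcgggcactccgccCTagattctaaggat
Eif2b1, chr5:124579117-124579146, minus strand: cgcactcgatttccggcgccgacgagtgac
Eif4a1 alone among these starts began with C, and its run of pyrimidines was 2 bases long. At Eif4a2, another annotated start lies 1 base upstream of the one shown and begins with C followed by a run of T.

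The stretches of the bound sites outside annotated untranslated regions are printed next, with GC boxes (GGGCGG on either strand) in capitals. All 4 member sites held a GC box, beside 181 of all 303 sites (59.7%). The Eef1a1 stretch begins at the 5′ splice site of intron 1 and contains the summit, and the Eef1a2 stretch ends next to the TSS. The Eif4a2 stretch follows exon 1. The Eif2b1 stretch lies upstream of the Eif2b1 start, but inside Gtf2h3, a gene on the opposite strand that is described below.
Eef1a1, chr9:78481484-78481638, minus strand: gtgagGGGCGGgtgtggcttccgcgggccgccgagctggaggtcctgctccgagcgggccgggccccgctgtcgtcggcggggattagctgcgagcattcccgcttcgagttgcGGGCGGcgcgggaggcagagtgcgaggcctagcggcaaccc
Eef1a2, chr2:181157015-181157157, minus strand: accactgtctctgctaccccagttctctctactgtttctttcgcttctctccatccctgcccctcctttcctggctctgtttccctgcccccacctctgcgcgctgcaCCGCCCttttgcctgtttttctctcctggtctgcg
Eif4a2, chr16:23107821-23107931, plus strand: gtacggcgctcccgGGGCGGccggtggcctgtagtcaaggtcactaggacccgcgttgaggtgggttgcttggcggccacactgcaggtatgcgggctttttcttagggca
Eif2b1, chr5:124579189-124579264, minus strand: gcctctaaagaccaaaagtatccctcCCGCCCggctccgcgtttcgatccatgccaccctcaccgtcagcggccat
The Eef1a1 stretch was the most GC-rich of the 4 (74.8%) and held 2 GC boxes. The Eef1a2 stretch had 58.0% GC, the Eif4a2 stretch 64.9% and the Eif2b1 stretch 61.8%, each with 1 GC box. The stretches differ in length and leave out boxes in untranslated regions. In the whole sites, Eif4a2 held another GC box 21 bases upstream of its TSS, and Eif2b1 another 32 bases upstream.

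Among the elongation factor genes, Eef1a1 and Eef1a2 both had a peak in replicate 1 and neither had one in replicate 2. In replicate 1, 1.1% of protein-coding genes had a peak, and in replicate 2 0.638% had one. Eef1a1 (ENSMUSG00000037742.14, chr9:78478449-78489151) had its peak at chr9:78481484-78481728, 245 bp wide, with a fold enrichment of 5.43 over the IgG background, a −log10 p of 8.86 and a −log10 q of 3.70. Eef1a2 (ENSMUSG00000016349.10, chr2:181147653-181157014) had its peak at chr2:181156826-181157157, 332 bp wide, with a fold enrichment of 4.66, a −log10 p of 7.06 and a −log10 q of 2.23. The Eef1a2 value was the lowest fold among the 5 member peaks, and 214 of the 251 peaks of replicate 1 had a higher fold. Of the same 251 peaks, 151 lay above Eef1a1. Both values were below the median fold of the replicate, 5.85.

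The number of PHF10 fragments at a summit was solved from the deposited fold and p of each peak, and shows how few molecules stand behind these values. Eef1a1 had 20 fragments at the summit, with an exact 95% Poisson interval of 12.2 to 30.9, and Eef1a2 had 17, with an interval of 9.90 to 27.2. The intervals overlapped, and the ratio of the counts was 1.18, with an exact 95% interval of 0.585 to 2.39. The fold of Eef1a1 exceeded that of Eef1a2 by 0.761, with an interval of −2.26 to 3.79. Both genes were picked for peaks that had passed the p threshold in this library, which these intervals do not take into account. Whether the paralogues differ in occupancy was therefore not tested. These intervals cover counting error only, since each paralogue had a value in 1 library.

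The summits of the eEF1A peaks lay downstream of the TSS. At Eef1a1 the summit was 147 bp downstream of the start of transcript Eef1a1-201 and in intron 1, and the peak reached 4 bases upstream and 241 bases downstream of the TSS. It covered all 86 bases of exon 1 and 155 bases past it. At Eef1a2, which has a single annotated transcript, the summit was 118 bp downstream, at a noncoding base of exon 1 (291 bases). The Eef1a2 peak extended over 143 bases upstream and 189 bases downstream of the TSS. Both paralogues thus had the summit between 118 and 147 bp inside the gene, while the Eef1a2 peak covered more of the upstream sequence. Of the 7 annotated starts of Eef1a1, 1 lay within the peak.

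**Figure D1:**
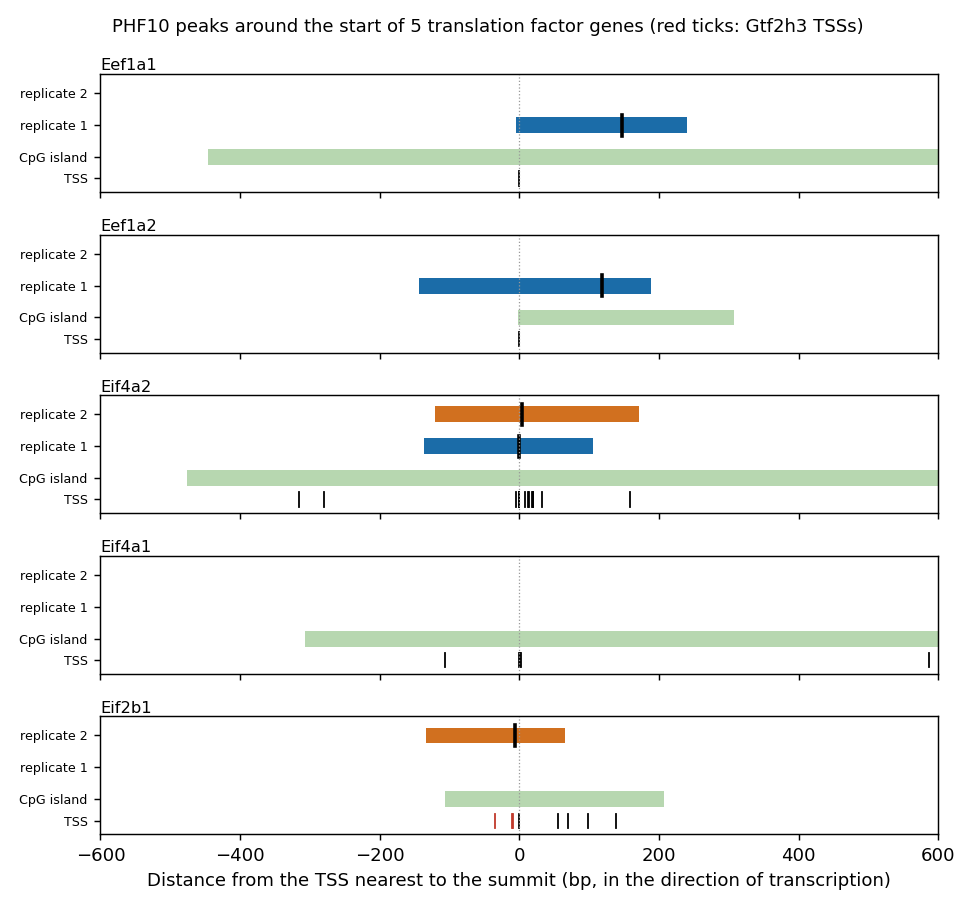
PHF10 peaks (blue, replicate 1; orange, replicate 2), summits (black bars), CpG islands (green) and annotated TSSs (ticks, those of Gtf2h3 in red) around 5 translation factor genes, by distance in bp from the TSS nearest to the summit, or from the TSS with the most transcripts for Eif4a1, with features beyond the axis cut off. The summits of Eef1a1 and Eef1a2 were 147 and 118 bp downstream, those of Eif4a2 and Eif2b1 within 6 bp of a TSS, and Eif4a1 had an island but no peak.

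The peak of Eef1a1 held letters that resemble a core promoter, downstream of the annotated start. These letters, and those of Eif4a2 given with them, were chosen after the sequences had been seen. TATAA began 25 bases downstream of the TSS and CTTTTT began 53 bases downstream, 28 bases after the first base of TATAA and 94 bases upstream of the summit. At Eif4a2, TATAA began 31 bases upstream of the TSS nearest to the summit. They are shown here in capitals, with the bases around them.
Eef1a1 TATAA, chr9:78481678-78481707, minus strand: gaacggtaTATAAgtgcggcagtcgccttg
Eef1a1 CTTTTT, chr9:78481650-78481679, minus strand: tggacgttCTTTTTcgcaacgggtttgccg
Eif4a2 TATAA, chr16:23107720-23107749, plus strand: cgcgagccTATAAaaaacgggcggcgccgt
TATAA on either strand was present in 57 of all 303 sites (18.8%) and CTTTTT in 30 (9.90%), and of the 4 member sites Eef1a1 and Eif4a2 held both. The GC boxes of the Eef1a1 peak lay on either side of the summit, 56 bases upstream and 53 bases downstream of it. A match of letters describes the sequence and says nothing about a factor bound there.

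Among the genes for eIF4A, Eif4a2 had a listed peak in both replicates and Eif4a1 in neither. Sites called in both replicates lay at 0.378% of protein-coding genes. Eif4a2 (ENSMUSG00000022884.15, chr16:23107444-23114136) had a replicate 1 peak at chr16:23107622-23107864, 243 bp wide, with a fold of 5.93, a −log10 p of 9.80 and a −log10 q of 4.45. In replicate 2 its peak was at chr16:23107638-23107931, 294 bp wide, with a fold of 4.95, a −log10 p of 7.95 and a −log10 q of 2.76. The merged site of 310 bp had a mean fold of 5.44 ± 0.695 (SD, n = 2), and 185 of the 303 sites had a higher mean.

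The fold of Eif4a2 was near the middle of replicate 1, where 95 of 251 peaks were higher, and low in replicate 2, where 122 of 141 peaks were higher. The summit held 22 fragments in replicate 1 (95% Poisson interval 13.8 to 33.3) and 15 in replicate 2 (8.40 to 24.7), and these intervals overlapped. The summits were 4 bp apart, at 0 and 4 bp downstream of the TSS of Eif4a2-214, at noncoding bases of exon 1 (62 bases). Transcription of Eif4a2 is annotated from 20 TSSs, of which 10 lay in the peak of replicate 1 and 11 in that of replicate 2. The Eif4a2 peaks extended to both sides of the start, over 137 bases upstream and 106 downstream in replicate 1, and over 121 upstream and 173 downstream in replicate 2.

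Among the 83 other promoter sites called in both replicates, those nearest to Eif4a2 in fold were at Chmp2a and Rps6, measured as the summed absolute difference in log2 fold over the 2 replicates. Chmp2a, for a membrane-scission protein of the ESCRT-III complex, had folds of 5.74 and 4.96 at chr7:13034658-13034960, a summed difference of 0.05. Rps6, for a protein of the small ribosomal subunit, had folds of 5.88 and 5.29 at chr4:86857222-86857565, a summed difference of 0.11.

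Eif4a1 (ENSMUSG00000059796.16, chr11:69666936-69672423) had no listed peak at any of its 11 TSSs. The nearest peak of either replicate was 62131 bp away, at chr11:69605730-69605932 in replicate 1 with a fold of 5.93, and lay at the promoter of Atp1b2, a sodium pump subunit gene named here after its value was seen. A gene with no listed peak has no fold in these files, so no difference between the folds of Eif4a2 and Eif4a1 could be computed. No listed peak was narrower than 200 bp, and narrower regions were not considered. What the lists allow for a gene with no listed peak follows here from the p threshold of 1e-05 alone. At the genome-wide background, which applied to all 5 member peaks, a summit of up to 13 fragments in replicate 1 (fold 3.65) or 11 in replicate 2 (fold 3.72) would not have passed it. The fewest fragments seen at that background were 15 in replicate 1 and 13 in replicate 2. In replicate 1 the interval of Eif4a2, from 13.8, began just above a count of 13, and in replicate 2 the interval from 8.40 included the 11. Such counts carry counting error too. Their upper 95% Poisson limits are 22.2 for 13 fragments and 19.7 for 11, both inside the Eif4a2 intervals. The local IgG background of Eif4a1 is not known from the lists, and at a background of 3 in place of 1.85 the fewest fragments past the threshold would be 18 and 15. The lists therefore give no test of a difference between the eIF4A genes.

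The promoter of Eif4a1 is printed to set beside the bound genes, from the RefSeq promoter table (GRCm38.p6), with GC boxes and CCAAT boxes in capitals. It holds the 150 bases before the outermost start.
Eif4a1, chr11:69672424-69672573, minus strand: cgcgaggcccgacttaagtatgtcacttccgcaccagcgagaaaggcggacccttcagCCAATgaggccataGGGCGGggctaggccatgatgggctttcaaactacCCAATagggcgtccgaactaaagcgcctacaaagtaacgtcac
It contained 1 GC box, 78 bases upstream of that start, and 2 CCAAT boxes, 92 and 43 bases upstream, although no peak was listed there. Every stretch of 100 bases in the 500 bp around the TSS of Eif4a1 was unique in mm10 (401 of 401), as it was for the other 4 genes, and alignments with mismatches or of shorter trimmed reads were not examined.

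**Figure D2:**
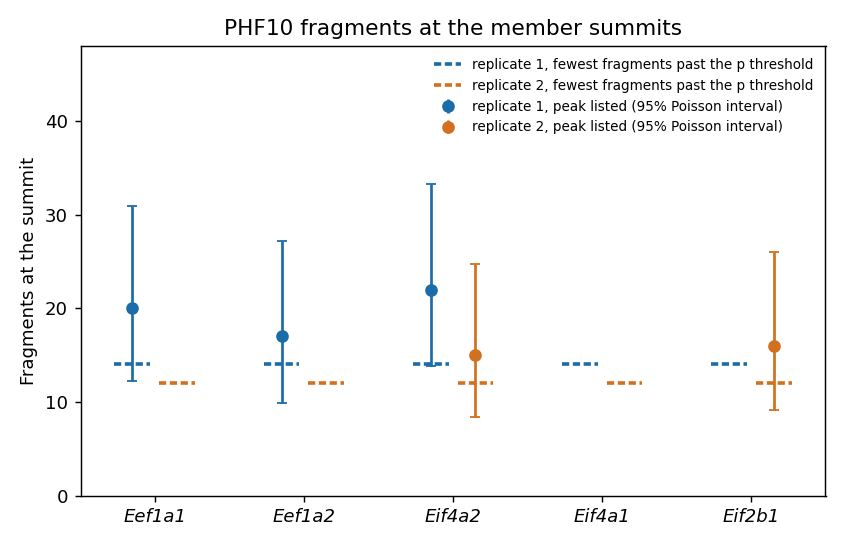
PHF10 fragments at the summit (vertical axis) for 5 translation factor genes in replicate 1 (blue) and replicate 2 (orange), with 95% Poisson intervals of the count; dashes mark the fewest fragments that pass the p threshold at the genome-wide background, 14 and 12. Listed summits held 15 to 22 fragments, and a dash with no point is a replicate in which no peak was listed.

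The initiation factor gene Eif2b1 (ENSMUSG00000029388.14, chr5:124570213-124579131) was bound in replicate 2 and had no listed peak in replicate 1. Its peak at chr5:124579065-124579264 was 200 bp wide, with a fold of 5.26, a −log10 p of 7.95 and a −log10 q of 2.76. This width was the smallest in both lists, was shared with other peaks, and equals the length to which reads were extended. The summit held 16 fragments (95% Poisson interval 9.15 to 26.0), and 109 of the 141 peaks of replicate 2 had a higher fold. It lay 6 bp upstream of the nearest of 6 annotated Eif2b1 starts, and the peak covered 133 bases upstream and 67 bases downstream of that start.

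This promoter is shared. Gtf2h3 (ENSMUSG00000029387.10), which encodes a subunit of the general transcription factor TFIIH, starts 9 bp away on the opposite strand, and the summit was 3 bp upstream of its TSS. The summit thus lay between the starts of Eif2b1 and Gtf2h3, and the peak cannot be assigned to either gene. The GC boxes of the site are upstream of Eif2b1 but within the annotated Gtf2h3 gene. A GC box of the site, which reads CCGCCC on the strand of Eif2b1 and begins 32 bases upstream of the Eif2b1 start, stood 26 bases from the summit and is shown in capitals.
Eif2b1 GC box, chr5:124579142-124579171, minus strand: gtgaagcgCCGCCCacgggccaaggcgcac
At the bound TSSs of Eef1a1, Eef1a2 and Eif4a2, no other gene had a TSS within 500 bp of the peak.

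Of the 4 bound genes, Eif4a2 was supported by both replicates and the other 3 by 1 each. Fragments in the other library are not known where no peak was listed, so the counts were only rescaled to its depth, with their 95% Poisson intervals. The 20 fragments of Eef1a1 correspond to 16.6 (10.1 to 25.6) at the depth of replicate 2, and the 17 of Eef1a2 to 14.1 (8.20 to 22.5), where 12 are needed at the genome-wide background. The 16 fragments of Eif2b1 correspond to 19.3 (11.1 to 31.4) at the depth of replicate 1, where 14 are needed. These intervals come from counts that had passed the threshold in 1 library, and they leave out the sampling error of the other library. Why these genes were not listed in the other replicate was not tested.

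Set among all peaks, the translation factor peaks lay in the middle and lower part of the range of folds. The folds of the 5 peaks ran from 4.66 to 5.93, while the quartiles of replicate 1 were 5.15 and 6.44 and those of replicate 2 were 5.29 and 7.10. Eef1a1 and Eif4a2 lay within the quartiles of replicate 1, Eef1a2 below them, and both Eif4a2 and Eif2b1 below those of replicate 2. The highest folds in the lists were 17.1 and 13.5. Widths of 200 to 332 bp compared with medians of 245 and 240 bp.

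**Figure D3:**
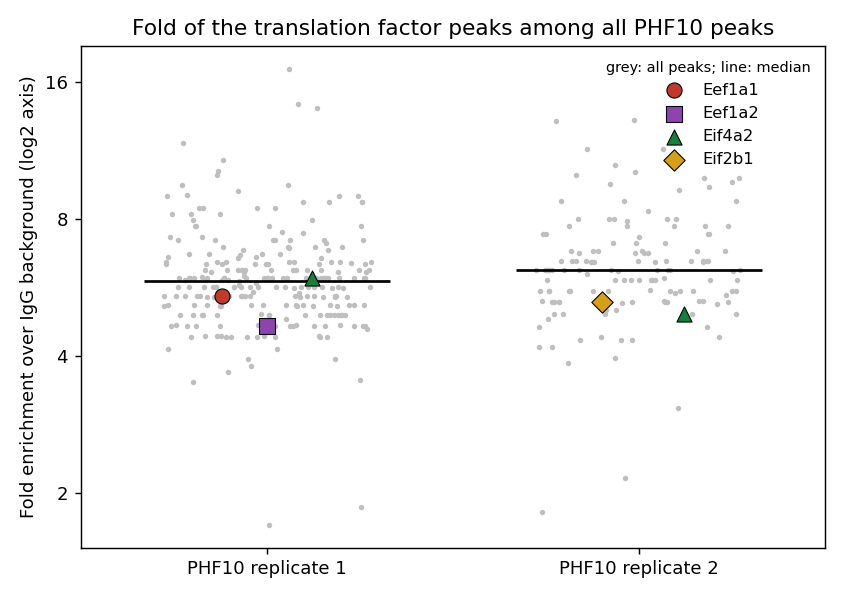
Fold enrichment over the IgG background (log2 axis) of every PHF10 peak (grey) in replicate 1 (251 peaks) and replicate 2 (141 peaks), with the median of each replicate (line) and the peaks of Eef1a1, Eef1a2, Eif4a2 and Eif2b1 marked. The marked peaks sat between 4.66 and 5.93, and only that of Eif4a2 in replicate 1 was above its median.

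A CpG island, a stretch of at least 200 bp with a GC content of at least 50% and an observed to expected CpG ratio of at least 0.6, was present at all 5 genes. Islands overlapped the start region of 55.9% of protein-coding genes, and of 95.3% of those with a peak, so an island at a bound gene was the rule in these lists. Among genes with an island, 2.31% had a peak. The islands of Eef1a1 (1312 bp, 62.5% GC, ratio 0.907), Eif4a2 (1231 bp, 61.9% GC, ratio 1.01) and Eif4a1 (1390 bp, 61.7% GC, ratio 0.997) were long. Those of Eef1a2 (311 bp, 67.2% GC, ratio 1.04) and Eif2b1 (314 bp, 69.4% GC, ratio 1.19) were short, and the Eef1a2 island began 2 bases before the TSS and ran into the gene. All 5 summits lay inside the island. Eif4a1, with no listed peak, therefore had the longest island of the 5 genes.

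In the 500 bp around the TSS, GC content was 68.4% at Eef1a1, 61.0% at Eef1a2, 60.2% at Eif4a1, 59.2% at Eif2b1 and 55.2% at Eif4a2, beside a median of 55.8% over 93513 protein-coding TSSs. The CpG ratio was 1.12 at Eif2b1, 0.977 at Eif4a2, 0.890 at Eef1a1, 0.829 at Eif4a1 and 0.802 at Eef1a2, all above the median of 0.459. Eif4a1 fell inside the range of the bound genes in both measures.

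Promoter letters were searched in the bases from 150 before to 30 after every TSS, on both strands. GC boxes (GGGCGG) were present at all 5 genes, beside 52.5% of protein-coding genes with a match at any TSS. CCAAT occurred at Eef1a1, Eif4a1 and Eif4a2 (50.4% of genes), and TATAAA at Eef1a1 and Eif4a2 (20.7%). The Eef1a1 match of TATAAA was at a start other than the one nearest to the summit, and is not the TATAA shown above, which G follows. The E-box CACGTG was found at none of the 5 (11.6%). CCGGAAG, the core of sites for ETS factors, was found at Eif4a1 (14.7%), and AAGATGG, a core of YY1 sites, at Eef1a1 (11.6%). A TOP start, a C at a TSS followed by at least 4 pyrimidines, was annotated at Eif4a2 (8.52%), at 2 of its TSSs. One of these, 23107758, with 2 transcripts, was 1 bp from the TSS nearest to the summit, and the other was 23107917. Only annotated starts were scored, so the CTTTTT at Eef1a1, which began 53 bases downstream of the TSS nearest to its summit, was not counted. Genes with many annotated TSSs have more windows to match, which favours Eif4a2 with 20 over Eef1a2 with 1.

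To place the 5 genes in their machinery, 73 genes for initiation, elongation and release factors and their regulators were grouped into 16 roles, and the peaks of all were counted by the same rule. Of the 73 genes, 4 had a peak (5.48%, beside 1.36% of all protein-coding genes and 2.31% of those with an island), and these were Eef1a1, Eef1a2, Eif4a2 and Eif2b1. As these 4 were picked for their peaks, nothing is read from the higher share. None of the 68 genes outside the 5 had a peak. In replicate 1 the count was 3 (1.1% of all protein-coding genes had a peak there), in replicate 2 it was 2 (0.638%), and 1 gene had a site in both (0.378%).

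The bound genes fell into 3 of the 16 roles. With 1.36% of all protein-coding genes bound, a role of 2 to 14 genes with no peak is what the background gives, and the zeros below are listed for completeness. Both eEF1A genes were bound, as were 1 of 3 for eIF4A and 1 of 5 for eIF2B, the exchange factor. None of the 14 genes for eIF3, the scaffold of the initiation complex, had a peak, and none of the 6 for eIF2 and its relatives, which deliver the initiator tRNA. The cap-binding eIF4E family (4 genes), its binding proteins (4), the eIF4G scaffolds (3), the helicase partners eIF4B and eIF4H (2) and the eIF2 kinases (4) had none. In elongation, no peak was listed at the 4 genes grouped under eEF1B (Eef1b2, Eef1d and Eef1g, for the complex that recharges eEF1A with GTP, and Eef1e1, for a protein of the tRNA synthetase complex), at 4 other elongation factors, or at 7 kinase and methyltransferase genes that modify elongation factors. Release factors (3 genes), the eIF1 group (5) and the genes for subunit joining and eIF6 (3) also had none.

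The nearest case just outside the distance rule was Eif6, whose product keeps the ribosomal subunits apart. A replicate 2 peak at chr2:155818929-155819201, with a fold of 5.56, lay 3279 bp from its closest TSS, at the promoter of BC029722, a gene named after its value was seen. All 5 member peaks, in contrast, contained a TSS of the gene.

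In promoter composition the bound genes of the list and those with no listed peak overlapped. An island was present at 68 of the 73 genes (93.2%), and at 64 of the 69 with no peak (92.8%). At the TSS with the highest CpG ratio of each gene, the 4 bound genes had a median GC content of 61.5% (59.2% to 68.4%) and a median CpG ratio of 0.986 (0.802 to 1.14). The 69 genes with no peak had medians of 64.6% (48.6% to 80.4%) and 0.910 (0.215 to 1.16), so that every bound gene lay inside their range.

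**Figure D4:**
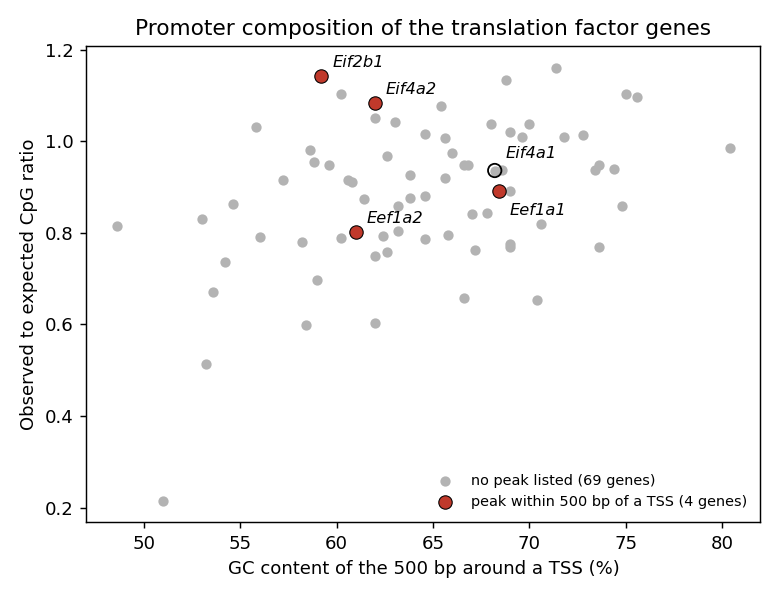
GC content (horizontal axis, %) against observed to expected CpG ratio (vertical axis) in the 500 bp around the TSS with the highest ratio, for 73 translation factor genes; red points are the 4 genes with a PHF10 peak, grey points the 69 without, and the open circle Eif4a1. The red points are scattered among the grey ones, from 59.2% to 68.4% GC.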

How the data were processed

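The authors trimmed single-end reads with cutadapt, aligned them to mm10 (GRCm38) with Bowtie version 1, kept reads with 1 alignment, removed duplicates with Picard, called peaks in each replicate with MACS2 against the IgG library and discarded blacklisted regions. Each deposited peak has a score (−log10 p times 10), a fold enrichment made by the authors (a ratio to the background in IgG, each term raised by 1), and deposited −log10 p and −log10 q values.

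All peaks were used. Peaks were merged when they shared at least 1 bp. Depth relative to the IgG library (1.38 in replicate 1, 1.14 in replicate 2) and the whole number of fragments at each summit were solved from fold and p under the Poisson model of MACS2, with reads extended to 200 bp. The step was tested on simulated peaks made under the same model, of which 284 of 284 and 292 of 292 were recovered. That checks the solving, and not whether the deposited peaks follow the model. The step solved all 251 and 141 peaks. The fewest fragments were 15 and 13. Read totals were not used. The IgG background, in fragments per position at the depth of the IgG library, was 1.85 genome-wide.

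TSSs came from GENCODE M21, islands and sequences from mm10, and upstream bases of Eif4a1 from RefSeq. Motif shares were computed over protein-coding genes. All 73 list genes were matched, 1 through a synonym. The members and lists were chosen with earlier results of these data known, so there is no test. Genes named are the 5 members, list genes with a peak, genes with a TSS within 500 bp of a member peak, the 2 promoter sites nearest in fold to a member bound in both replicates, and the list gene nearest outside 500 bp, while Atp1b2 and BC029722 were named after their values were seen. Alternatives covered each replicate left out, only sites shared by the replicates, higher p and q limits, other windows, the fold without the added 1, and other definitions of islands and motifs. Scripts ran in Python 3.11.15 with scipy 1.17.1, numpy 2.4.6, numba 0.67.0 and pandas 2.3.3, and plots were drawn with matplotlib 3.10.9.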

Additional observations from a re-analysis of the deposited data

How the results depend on the processing

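With sites called in both replicates only, 1 member (Eif4a2) and 1 of the translation factor genes had a peak, and the share of protein-coding genes was 0.378%. Leaving out a replicate gave 2 to 3 members, 2 to 3 genes of the list, 0.638% to 1.10% of protein-coding genes and 2 to 3 member sites at an island. Without replicate 1 the genes kept were Eif4a2 and Eif2b1, and without replicate 2 they were Eef1a1, Eef1a2 and Eif4a2. Eef1a1 and Eef1a2 have no value without replicate 1, and Eif2b1 has none without replicate 2. Without the 1 that MACS2 adds to both terms, the folds rose together, to 7.82 for Eef1a1, 6.65 for Eef1a2, 7.56 for Eif2b1 and a mean of 7.84 for Eif4a2, and the fold of Eef1a1 minus that of Eef1a2 was 1.17. Islands of at least 500 bp were at 2 member sites, those of Eef1a1 and Eif4a2. At the TSS nearest to a summit alone, the TATA box was at 1 member (Eif4a2), and CCAAT, the ETS core, the YY1 core and the TOP start were at 0. The fold of Eif4a2 minus that of Eif4a1 has no value under any setting, since Eif4a1 had no peak. The other alternatives (windows of 200 and 1000 bp, the summit in place of the peak, a −log10 p of at least 7, a −log10 q of at least 2 and protein-coding transcripts only) left 4 members with a peak.

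No paired analysis was possible because the 2 PHF10 libraries form a single group and the IgG library has no list of its own. Values rest on 15 to 22 fragments. At the genome-wide background, the p threshold alone leaves unlisted a gene with up to 13 fragments in replicate 1 or 11 in replicate 2. No listed peak was narrower than 200 bp, and whether narrower regions with more fragments went unlisted is not known.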
